A study of Mus musculus with 24 samples.

Results

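At D30 the series holds 6 mouse retinal organoids (MROs), each sequenced alone, out of 24 organoids in all. They were chosen by their sample labels only, which give the timepoint and a number from 1 to 6, and each is called here by that number. The other 18 organoids, 6 each at D20, D22 and D25, were used to see whether the genes that varied at D30 also varied in organoids that had no part in their choice. The levels of some genes were looked up in them, and the spread between organoids was compared between timepoints. All 24 were grown from E14Tg2a mouse embryonic stem cells in 1 independent experiment, are labelled with the control genotype and retina as tissue, and received water, the solvent, as their only treatment. They were raised by the trisection protocol, in which each aggregate is cut and its pieces grown on, in medium with serum and with a retinoic acid receptor agonist for part of the earlier culture. The values are whole organoids, so every level is an average over all the cells an organoid held, and fewer cells of a type cannot be told apart from less RNA per cell.

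Retinal organoids form when stem cell aggregates are led to an eye field fate, and they build the neural retina with its rods, cones, bipolar, amacrine, horizontal and ganglion cells and its Müller glia. The eye field lies beside the fields that give the telencephalon, the choroid plexus and the pigment epithelium, and aggregates can contain such neighbouring tissue as well as retina. Single organoids of 1 batch can therefore differ in their makeup, and a gene read only in some of them shows as a gene with a large spread.

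Between 13600684 and 16300261 reads per D30 organoid fell on annotated genes, a depth at which 3 counts correspond to between 0.180 and 0.221 normalized CPM, the counts scaled to a common library size. Rods were present in every organoid: the summed level of 24 rod genes lay between 18656 and 39058 CPM, while the summed level of 11 microglia genes was at most 1.86 CPM. Organoid 6 stood apart from the other 5. Its log2 CPM had the lowest correlation with another organoid (Pearson r = 0.886, with organoid 1), whereas organoids 1 and 2 were the closest pair (r = 0.980). No pair agreed within counting noise, since the chi-square per degree of freedom was 19.1 or more in all 15 pairs, and each library counts as its own organoid. Results that rest on organoid 6 are given with and without it.

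Of 46603 annotated genes, 12965 had a mean of 50 or more raw counts in the 6 organoids, and 11775 of these were protein coding. The spread of each gene is given as its biological coefficient of variation (CV), the SD between organoids over the mean after the variance of counting had been taken off. Against Poisson counting noise, 11660 of the 12965 genes varied (edgeR goodness of fit, adjusted p under 0.01), which is 89.9% of the genes tested. The other 1305 did not pass. Counting noise is a low bar at this depth, so a second test asked which genes varied more than genes of the same level do on the whole, with the trend of the spread over the level taken from edgeR. Past both tests were 478 genes, or 3.69% of the 12965, and 443 of them were protein coding.

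The median biological CV over all 12965 genes was 0.165, with 5% of genes below 0.0523 and 5% above 0.499. Among the 478 genes it was 0.612, a value that the test itself set high. Well counted genes at the other end did not differ beyond counting at all. Pdhb, a subunit of pyruvate dehydrogenase, lay between 115 and 117 CPM in the 6 organoids, and its biological CV was 0. Wdr13, at 170 to 177 CPM, and Sdhc, a subunit of succinate dehydrogenase, at 66.1 to 70.5 CPM, had a biological CV of 0 as well, and so did Plrg1, a splicing factor, Psmd12, a proteasome subunit, Hdhd2 and Rufy2. Fam120b, the last of these 8 steadiest genes with a mean of 1000 or more raw counts, reached 0.00577.

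**Figure D1:**
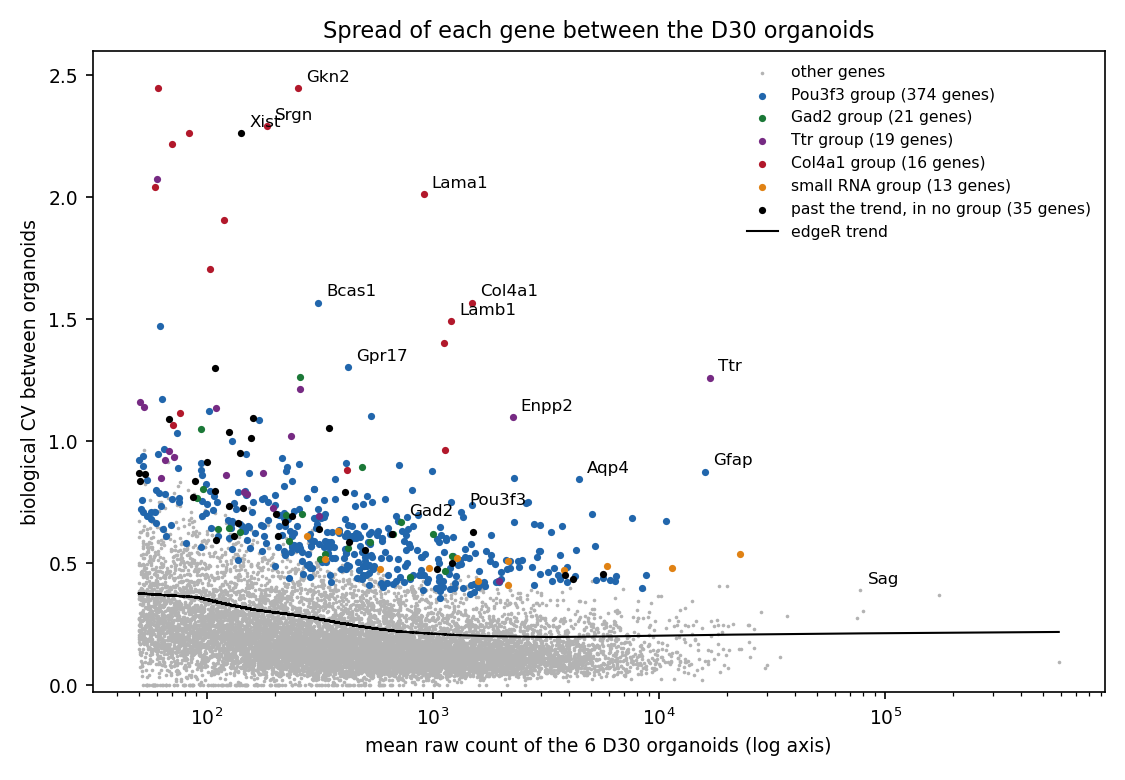
Biological CV between the 6 D30 organoids (vertical axis) against the mean raw count of each of 12965 genes (horizontal log axis), with the 478 genes past both tests in colour by group and the edgeR trend as a line. Gkn2, Srgn and Xist sit above 2, the Col4a1 group mostly above 0.8, and Sag, at 0.390, nearer the trend.

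Organoids 1 and 6 marked the ends of the range. Of the 478 genes, 236 had their highest level in organoid 1 and 368 their lowest in organoid 6. Over all 12965 genes the same 2 counts were 2732 and 3212. When organoid 6 was left out, 270 genes passed both tests among the remaining 5. Of these, 210 were among the 478, so 268 of the 478 were not called without organoid 6. Leaving out any other organoid left between 400 and 416 genes past both tests, of which 382 to 410 were among the 478.

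The 478 genes were grouped by the correlation of their log2 CPM over the 6 organoids. They fell into 5 groups of 10 or more genes, which held 443 of them, and 35 stood in no group. Each group is named here by a gene near its mean pattern. The Pou3f3 group held 374 genes, the Gad2 group 21, the Ttr group 19, the Col4a1 group 16 and a group of small RNAs 13. Since the genes were put together by their pattern at D30, that pattern is a description and not a finding, and the reading that is independent of it is the one in the D20, D22 and D25 organoids.

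**Figure D2:**
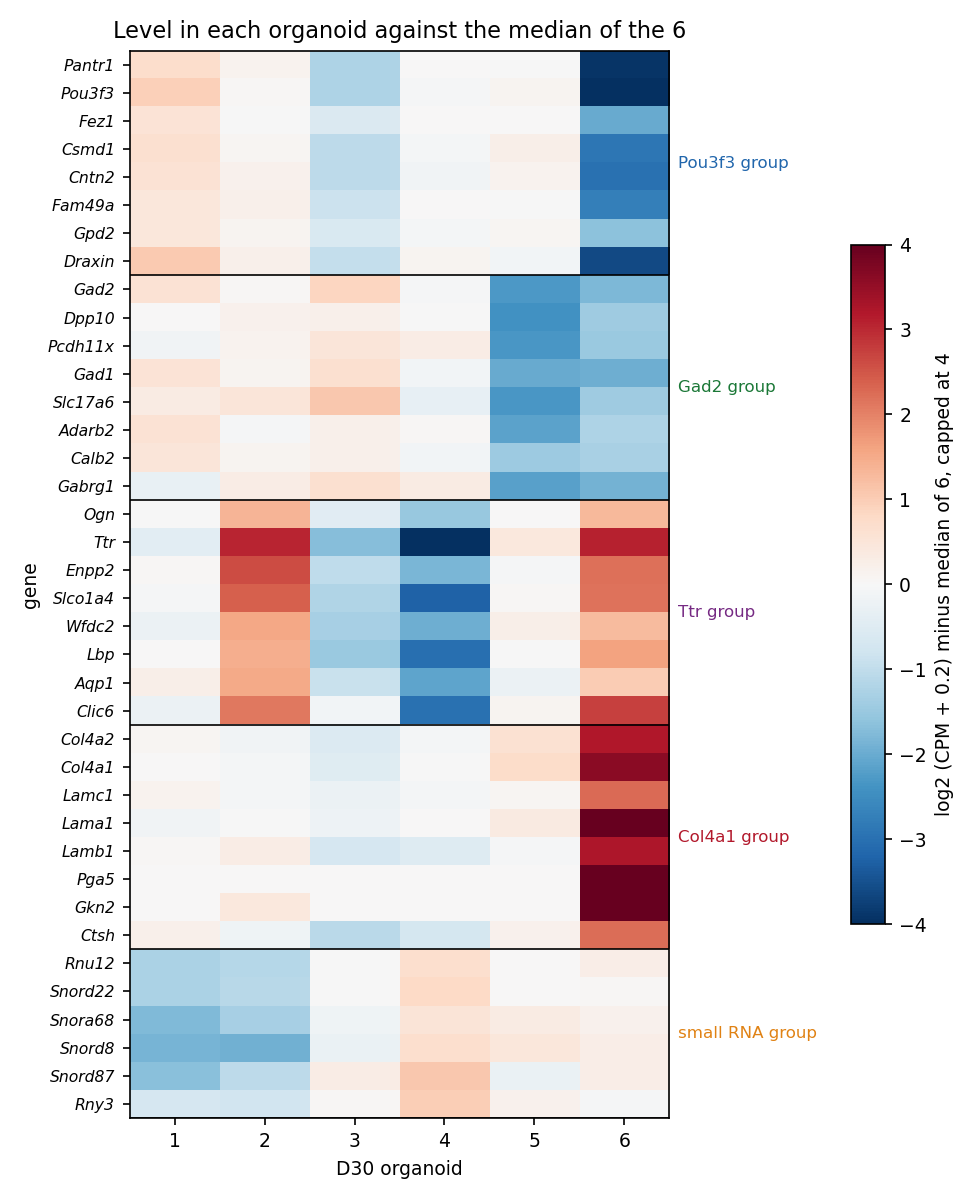
Levels of up to 8 named genes closest to the mean pattern of each of the 5 groups in D30 organoids 1 to 6 (columns), as log2 of CPM + 0.2 minus the median of the 6, capped at 4. The Pou3f3 group is low in organoid 6, the Gad2 group low in organoids 5 and 6, the Ttr group high in 2 and 6, the Col4a1 group highest in 6, and the small RNAs low in 1 and 2.

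The Pou3f3 group was lowest in organoid 6 in 360 of its 374 genes and in organoid 3 in the other 14. Its highest level was in organoid 1 for 220 genes, in 5 for 76, in 4 for 55 and in 2 for 23. The 374 genes had a median biological CV of 0.588, and of 0.421 without organoid 6. Without that organoid 130 of them still passed both tests.

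Genes of glia were among the well counted members. Gfap, the intermediate filament of astrocytes and of reactive Müller glia, stood at 2132, 798, 342, 632, 2285 and 141 CPM in organoids 1 to 6 (biological CV 0.875, adjusted p = 1.08e-20). Organoids 1 and 5 were the high ones, organoid 6 the low one, and the ends of the range differed 16.2-fold. Aqp4, the water channel of Müller glia and astrocytes, read 735, 299, 106, 192, 336 and 62.0 CPM (biological CV 0.843). Ednrb, an endothelin receptor found on glia and neural crest cells, followed with 404, 208, 82.3, 148, 172 and 26.7 CPM (0.751). In each of these 3 genes organoid 6 was lowest and organoid 3 next to lowest, with the ends between 11.9-fold and 16.2-fold apart. Sparcl1, a matrix protein that astrocytes secrete, was named after its values had been seen: it read 1454, 779, 288, 748, 902 and 102 CPM.

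Genes of forebrain neurons in the group were low in organoid 6 as well. Neurod6, a transcription factor of cortical excitatory neurons that some amacrine cells carry too, stood at 142, 130, 15.5, 132, 185 and 0.964 CPM (biological CV 0.740, adjusted p = 2.32e-41), a range of 192-fold. Pou3f3, a POU factor of the upper cortical layers, was at 187, 98.1, 40.7, 93.2, 103 and 4.13 CPM (0.711), and Mef2c, a factor of maturing neurons, at 234, 239, 80.3, 337, 38.0 and 6.82 CPM (0.849). Organoid 5 was the highest for Neurod6 but the second lowest for Mef2c, so the neuronal genes did not all follow 1 order. Emx2, a forebrain factor outside the group that did not pass the trend test and was named after its values had been seen, was lowest in organoid 3, at 2.89 CPM, with 3.996 in organoid 6 and 8.38 to 17.3 in the others.

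Pantr1, a noncoding RNA whose start lies 926 bases from that of Pou3f3 on the other strand, had 91.3, 61.5, 23.9, 56.5, 56.1 and 3.51 CPM, and its correlation with Pou3f3 over the 6 organoids was r = 0.998. Near the mean pattern of the group were also Csmd1, a membrane protein of the complement control family, at 2.41 to 30.0 CPM, the adhesion molecule Cntn2 at 2.14 to 27.5 CPM, and Draxin, a repulsive axon guidance protein, at 1.65 to 46.4 CPM. Fez1, which serves axonal transport, lay between 54.7 and 327 CPM, Fam49a between 25.2 and 231 CPM, and Gpd2, the mitochondrial glycerol phosphate dehydrogenase, between 25.7 and 109 CPM. Each of these 6 genes was lowest in organoid 6 and highest in organoid 1, and without organoid 6 their biological CV fell from a range of 0.402 to 0.690 to one of 0.247 to 0.491. Tnr, tenascin R of perineuronal nets, read 183, 96.2, 44.4, 69.3, 70.2 and 9.02 CPM, and Pla2g7, a phospholipase that inactivates platelet-activating factor, 377, 208, 52.3, 110, 225 and 45.0 CPM.

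The 3 largest spreads of the Pou3f3 group were those of oligodendrocyte lineage genes, and here organoid 1 stood alone at the top. Bcas1, a marker of early myelinating oligodendrocytes, was at 79.4, 24.2, 3.43, 4.26, 5.38 and 0.207 CPM (biological CV 1.57). Gpr17, a receptor of oligodendrocyte precursors, stood at 93.3, 38.7, 5.11, 13.2, 11.3 and 0 CPM (1.305), and Gjc3, a connexin of myelinating cells, at 14.8, 6.17, 0.672, 0.882, 0.966 and 0 CPM (1.47). Organoid 2 came second in all 3. The values in organoid 6 correspond to 3 counts or fewer, so that no fold is given against it, and a count of 0 there allows a level of up to 0.207 CPM. Olig1, a transcription factor of the lineage, read 15.2, 6.52, 2.02, 9.56, 4.48 and 0.138 CPM.

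With a stricter limit on the correlation the Pou3f3 group split in parts of 298 and 68 genes. The larger one, with Csmd1, Cntn2, Pou3f3 and Pantr1, had a mean standardized level of 0.57 in organoid 5, above the mean of the organoids. The smaller one was below the mean there (-0.42). Among its genes, named after their values had been seen, were Dcx, doublecortin of young migrating neurons, at 493, 345, 214, 256, 144 and 28.8 CPM, and Sox11, a factor of newborn neurons, at 447, 303, 147, 215, 147 and 59.3 CPM. Organoid 5 was thus high for Gfap and Neurod6 and second lowest for Dcx.

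The 3 metallothionein genes of the list, Mt1, Mt2 and Mt3 on chromosome 8, encode small metal-binding proteins. All 3 passed both tests and all belonged to the Pou3f3 group. Mt1 stood at 95.8, 55.5, 22.0, 40.1, 97.7 and 16.0 CPM, Mt2 at 40.5, 19.8, 8.94, 16.1, 37.3 and 5.17 CPM, and Mt3 at 28.3, 13.1, 6.52, 12.1, 24.6 and 2.76 CPM. Organoids 1 and 5 were high and 3 and 6 low in each, as for Gfap, and without organoid 6 2 of the 3 still passed. The start sites of Mt1 and Mt2 lie 6418 bases apart and those of Mt2 and Mt3 20057 bases apart, and the correlation between Mt1 and Mt2 over the 6 organoids was r = 0.994. Because 3 neighbouring genes moved together, their promoters are shown, each from 250 bases before to 50 bases after the start, taken from RefSeq (GRCm38.p6). Capitals mark matches to the core of the metal response element, searched as TGCACNC and TGCGCNC on both strands. Mt1 lies at chr8:94178839-94179138, Mt2 at chr8:94172368-94172667 and Mt3 at chr8:94152357-94152656, all 3 on the plus strand.
Mt1: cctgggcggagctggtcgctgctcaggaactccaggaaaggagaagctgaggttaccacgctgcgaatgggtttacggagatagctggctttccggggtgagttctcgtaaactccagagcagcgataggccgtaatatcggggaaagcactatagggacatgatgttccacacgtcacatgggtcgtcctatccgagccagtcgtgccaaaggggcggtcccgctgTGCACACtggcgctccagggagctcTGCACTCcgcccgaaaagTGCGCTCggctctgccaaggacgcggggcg
Mt2: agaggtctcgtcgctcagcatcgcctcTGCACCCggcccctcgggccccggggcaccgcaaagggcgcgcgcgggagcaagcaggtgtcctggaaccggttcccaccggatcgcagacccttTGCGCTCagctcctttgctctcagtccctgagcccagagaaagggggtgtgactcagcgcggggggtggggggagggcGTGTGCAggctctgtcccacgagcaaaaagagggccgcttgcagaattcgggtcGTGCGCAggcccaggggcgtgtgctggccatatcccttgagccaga
Mt3: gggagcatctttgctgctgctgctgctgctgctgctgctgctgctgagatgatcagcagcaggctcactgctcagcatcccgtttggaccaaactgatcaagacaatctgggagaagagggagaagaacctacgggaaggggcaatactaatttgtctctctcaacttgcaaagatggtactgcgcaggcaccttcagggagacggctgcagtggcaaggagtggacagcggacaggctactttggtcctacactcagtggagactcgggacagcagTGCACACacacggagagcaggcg
The window of Mt1 held 3 matches, that of Mt2 4 and that of Mt3 1. Among 32851 promoter windows of 27025 genes, 25.7% held at least 1 match and 1.97% held 3 or more. A match is a run of letters and not a measured site.

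The Gad2 group was low in organoids 5 and 6. Gad2 and Gad1, the enzymes that make GABA, stood at 74.5, 50.9, 90.9, 48.3, 9.93 and 14.0 CPM and at 70.6, 52.0, 76.3, 44.9, 11.7 and 12.3 CPM (biological CV 0.667 and 0.621, adjusted p = 9.72e-11 and 8.52e-09). Calb2, the calcium-binding protein calretinin of amacrine and ganglion cells, was at 119, 91.6, 98.4, 79.3, 31.0 and 34.6 CPM (0.470). In these 3 genes organoids 5 and 6 lay apart from the other 4, and the range was between 3.84-fold and 9.15-fold. Slc17a6, the vesicular glutamate transporter of ganglion cells, read 21.7, 24.2, 36.5, 13.7, 3.24 and 6.27 CPM (0.701), again with organoids 5 and 6 at the bottom.

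Further members near the mean pattern were Dpp10, an auxiliary subunit of potassium channels, at 4.83 to 30.3 CPM, the protocadherin Pcdh11x at 6.41 to 46.6 CPM, Adarb2, a member of the RNA editing enzyme family, at 5.59 to 38.0 CPM, and the GABA receptor subunit Gabrg1 at 2.21 to 16.8 CPM. All 4 were lowest in organoid 5. Organoid 5 was lowest in 19 of the 21 genes of the group, whose median biological CV was 0.629. Without organoid 6, 20 of the 21 passed both tests, and without organoid 5 only 7 did. Dlx1, a homeobox factor of forebrain interneurons and of amacrine cells, was placed with the Pou3f3 group. It stood at 113, 70.1, 70.0, 60.5, 6.62 and 0.207 CPM and so shared the low level in organoids 5 and 6.

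Organoid 3 was on its own in some genes. Vax2os, a noncoding RNA next to the ventral retina gene Vax2, read 16.9, 15.9, 59.6, 4.93, 2.76 and 2.89 CPM (biological CV 1.26, and 0.815 without organoid 3). En2, a homeobox gene of the midbrain and hindbrain, was at 49.1, 51.0, 151, 61.2, 35.7 and 57.9 CPM (0.618, and 0.190 without organoid 3). Aldh1a1, the dorsal retinaldehyde dehydrogenase of the retina, was lowest in organoid 3, with 241, 305, 79.7, 263, 418 and 401 CPM (0.433, adjusted p = 4.46e-05). The rest of the dorsal list, named after its values had been seen, was divided. Efnb1, Efnb2 and Tbx5 were lowest in organoid 3 too. Tbx2, Tbx3 and Bmp4 were not, and Tbx3 was second highest there, at 10.9 CPM. The ventral genes Vax2 and Aldh1a3 were below the minimum count and, looked at after the others had been seen, were highest in organoid 3, at 9.34 and 10.2 CPM. The 2 ventral genes above the minimum did not share this, since Ephb3 was lowest in organoid 3, at 5.24 CPM, and Ephb2 second lowest, at 43.7 CPM. Without organoid 3, neither En2 nor Aldh1a1 passed both tests.

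The Ttr group separated organoids 2 and 6 from the rest. Ttr, transthyretin, the chief secreted protein of the choroid plexus and a product of pigment epithelium too, stood at 267, 3009, 112, 21.2, 488 and 3058 CPM (biological CV 1.26, adjusted p = 2.19e-62), a range of 144-fold. Enpp2, autotaxin, which the choroid plexus also makes, was at 71.6, 420, 33.9, 19.3, 66.6 and 315 CPM (1.10). Kcnj13, a potassium channel of choroid plexus and pigment epithelium, read 0.778, 6.45, 1.14, 0.294, 1.79 and 10.4 CPM. In all 3, organoids 2 and 6 were above the other 4 and organoid 4 was the lowest.

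Clic6, a chloride channel protein, lay between 0.221 and 22.0 CPM, Lbp, which binds bacterial lipopolysaccharide, between 0.221 and 10.1 CPM, the water channel Aqp1 between 1.69 and 22.9 CPM, Wfdc2 between 0.662 and 9.67 CPM, and Ogn, a small proteoglycan of connective tissue and meninges, between 5.37 and 40.9 CPM. The organic anion transporter Slco1a4 had 9.60 CPM in organoid 2, 8.20 in organoid 6 and 0 in organoid 4. Of the 19 genes, 10 were highest in organoid 2 and 9 in organoid 6, and 15 were lowest in organoid 4. Both tests were passed by 13 of the 19 without organoid 6, by 12 without organoid 4 and by 8 without organoid 2. Tinagl1, a matrix protein of basement membranes, was placed with this group at 0.419, 1.82, 0.336, 0, 0.621 and 21.8 CPM, but only organoid 6 was high.

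The Col4a1 group was highest in organoid 6 in all of its 16 genes. Lama1, the laminin chain of early basement membranes, was at 9.996, 10.9, 9.41, 11.1, 14.3 and 319 CPM (biological CV 2.01, adjusted p = 4.60e-59), and its CV fell to 0.151 without organoid 6. Lamb1, its partner beta chain, had 36.6, 43.4, 22.0, 25.0, 34.3 and 332 CPM (1.49, and 0.266 without organoid 6), and the gamma chain Lamc1 52.5, 45.3, 40.7, 45.4, 49.8 and 228 CPM (0.963, and 0.0896). These 3 chains make up the laminin trimer of the embryonic basement membrane, and in organoid 6 all 3 were above every other organoid. Nid1, nidogen, which links laminin to type IV collagen, read 23.9, 13.4, 14.8, 12.7, 27.2 and 77.6 CPM.

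Col4a1 and Col4a2 encode the chains of the common type IV collagen. Col4a1 (chr8:11198423-11312826, minus strand) stood at 35.1, 32.9, 24.5, 34.0, 57.2 and 426 CPM (biological CV 1.57, and 0.330 without organoid 6). Col4a2 (chr8:11312805-11449287, plus strand) was at 34.0, 29.1, 22.0, 29.9, 49.2 and 294 CPM (1.40, and 0.305). Their start sites are 21 bases apart on opposite strands, the gene bodies overlap there, and r between them was 0.999 over the 6 organoids, so reads at the overlap cannot be assigned with certainty where the counting did not use the strand. The 2 genes are read from 1 stretch of DNA, which is why the promoter windows are shown. Capitals mark the 78 bases that both windows hold, chr8:11312777-11312854, read on opposite strands. The window of Col4a1 is chr8:11312777-11313076 on the minus strand and that of Col4a2 chr8:11312555-11312854 on the plus strand (RefSeq, GRCm38.p6).
Col4a1: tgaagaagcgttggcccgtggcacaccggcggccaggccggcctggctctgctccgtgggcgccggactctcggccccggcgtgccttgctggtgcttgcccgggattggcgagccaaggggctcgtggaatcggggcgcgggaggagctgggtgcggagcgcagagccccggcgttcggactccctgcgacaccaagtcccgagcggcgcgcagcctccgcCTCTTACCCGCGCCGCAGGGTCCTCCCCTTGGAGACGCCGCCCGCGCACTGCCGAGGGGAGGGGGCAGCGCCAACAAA
Col4a2: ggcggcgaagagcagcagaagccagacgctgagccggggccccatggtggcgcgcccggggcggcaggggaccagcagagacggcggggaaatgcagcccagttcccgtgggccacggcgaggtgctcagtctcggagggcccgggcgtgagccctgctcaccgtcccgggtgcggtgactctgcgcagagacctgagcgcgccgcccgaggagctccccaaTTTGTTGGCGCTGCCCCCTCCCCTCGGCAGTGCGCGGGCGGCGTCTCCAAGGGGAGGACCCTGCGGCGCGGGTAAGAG

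The other members had lower levels, some of them near 0 outside organoid 6. Gkn2, gastrokine 2 of the stomach lining (chr6:87373357-87379497), had 0, 1, 0, 0, 0 and 1521 raw counts in organoids 1 to 6, and Pga5, a pepsinogen (chr19:10668956-10678071), had 366 in organoid 6 and 0 in each other. Srgn, the proteoglycan serglycin, stood at 2.15, 0.771, 0.269, 0.515, 0.345 and 71.9 CPM (biological CV 2.29). Tspan8, a tetraspanin of gut epithelium, had 0, 0.0701, 0, 0, 2.14 and 32.4 CPM, and Ugt2b34, a glucuronosyltransferase, 0, 0, 0, 0, 2.34 and 26.7 CPM. In the last 2 genes organoid 5 was the only other one above the level of 3 counts. Trap1a, an X-linked gene of trophoblast and tumour cells, lay between 0.403 and 0.911 CPM in organoids 1 to 5 and at 21.01 CPM in organoid 6. For Tfpi, an inhibitor of coagulation, the level was 0.897 to 3.82 CPM against 40.2, for the activin antagonist Fst 0.882 to 3.77 against 31.6, for the protease Ctsh 1.48 to 3.89 against 16.8, and for the galectin Lgals4 1.75 to 7.10 against 14.7. The 7.10 CPM of Lgals4 were those of organoid 5, so that organoid 6 was not apart from all others for this gene.

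Without organoid 6, 6 of the 16 genes kept a mean of 50 or more raw counts, and 0 of the 6 passed both edgeR tests. Against the trend at an unadjusted p under 0.05 there was 1 of the 6, beside 1105 of 12895 over all genes. Tspan8 and Ugt2b34, with a biological CV of 2.11 and 2.20 in the remaining 5 organoids, were below that minimum.

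The fixed list of 7 endoderm genes had no member above the minimum count, and its summed level was 0.120, 0.210, 0.336, 0, 9.24 and 27.5 CPM in organoids 1 to 6. In organoid 5 this was for the most part Apoa1, an apolipoprotein of yolk sac, liver and gut, at 8.41 CPM, and in organoid 6 Apoa1 had 6.96 CPM. Another member, Afp, alpha-fetoprotein of yolk sac and liver, had 208 raw counts in organoid 6 and 0 in the others, and Foxa2 had 27 in organoid 6 and at most 2 elsewhere. Further genes were looked up after these values had been seen. Sox17, an endoderm factor of that list, had 0, 0, 1, 0, 0 and 53 raw counts, and the endoderm factors Gata4 and Gata6 had 56 and 37 in organoid 6 and at most 5 elsewhere. Tff1, a trefoil peptide of the stomach, had 179 and 0, and Gkn1, the neighbour of Gkn2, 225 against at most 2. Cubn, an uptake receptor of yolk sac, gut and kidney, had 144 against at most 19, Rhox5 101 against at most 4, and Krt8, a simple epithelial keratin, 134 against 42 in organoid 5 and at most 9 in organoids 1 to 4. Sparc, a matrix protein, did not pass the trend test but was highest in organoid 6 too, at 452, 443, 424, 501, 665 and 1017 CPM. The part of cells of another germ layer in the levels of the Col4a1 group was not tested.

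In the D20, D22 and D25 organoids Gkn2 had 0 counts in 17 of 18 and 19 counts in the other, and Gkn1, Tff1 and Foxa2 had 0 counts in all 18. Lama1 lay between 17.3 and 22.5 CPM and Col4a1 between 24.6 and 36.3 CPM over the 6 organoids of D25. Of the Col4a1 group, 6 genes could be tested at D25, 5 at D22 and 5 at D20, and none passed both edgeR tests. Past the trend at an unadjusted p under 0.05 there were 2, 0 and 1. Over all D30 genes tested there the counts were 1016 of 12373, 1008 of 11723 and 787 of 11740.

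**Figure D3:**
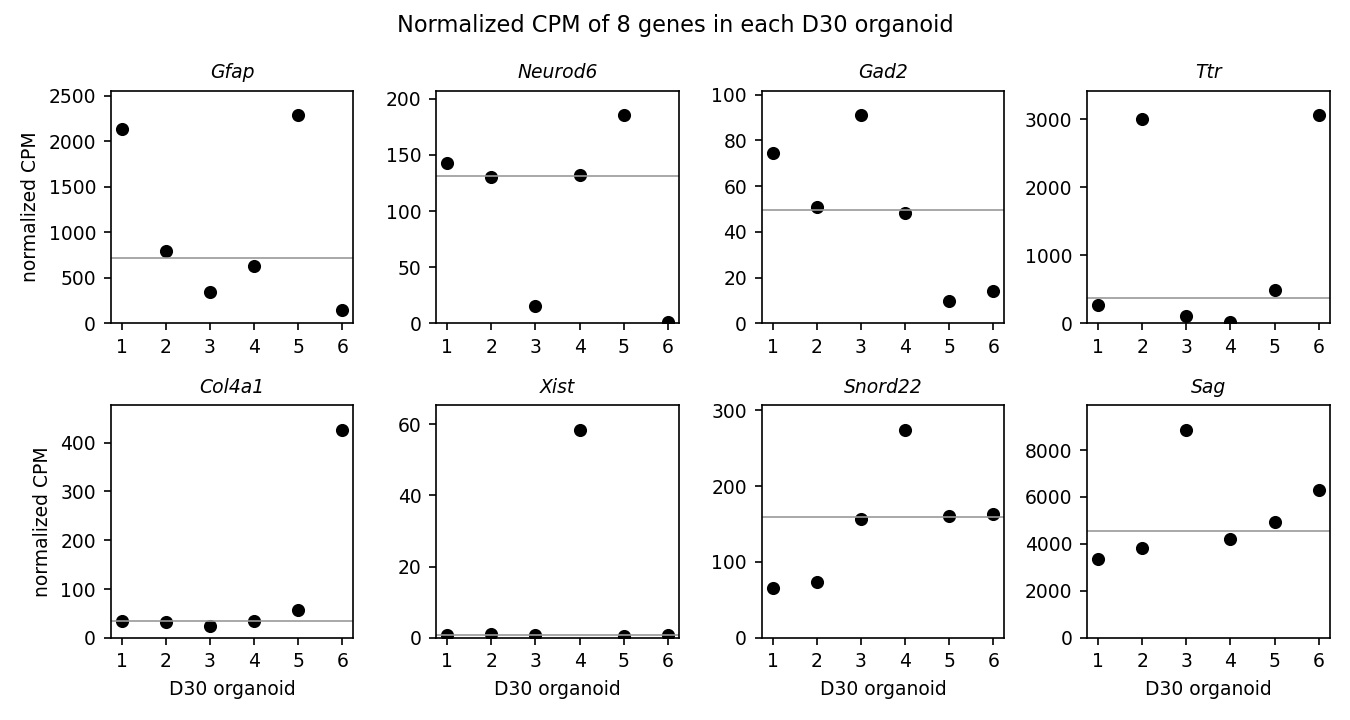
Normalized CPM (vertical axes, each from 0) of 8 genes in D30 organoids 1 to 6, 1 point per organoid, with the median of the 6 as a grey line. Gfap is high in 1 and 5, Neurod6 near 0 in 6, Gad2 low in 5 and 6, Ttr high in 2 and 6, Col4a1 high in 6, Xist high in 4, Snord22 lowest in 1 and 2, and Sag highest in 3.

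The fifth group held 13 genes, none of them protein coding, and lay low in organoids 1 and 2. Rnu12, the U12 RNA of the minor spliceosome, stood at 347, 380, 828, 1338, 833 and 1006 CPM (biological CV 0.479). Snord22, a box C/D small nucleolar RNA, was at 65.5, 73.1, 156, 274, 161 and 164 CPM (0.509), and Rny3, a Y RNA, at 156, 148, 256, 489, 279 and 244 CPM (0.472). Organoid 4 was the highest in 10 of the 13 genes. Snora68 read 7.42 to 36.5 CPM, Snord8 5.39 to 33.1 CPM and Snord87 7.90 to 54.4 CPM, with the lowest value in organoid 1 or 2 each time.

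Most of the class had its high and low values in the same organoids. Of 111 small noncoding RNAs with the minimum count, 13 passed both tests (3.69% over all genes) and 2 were dispersion outliers of DESeq2 (1.33% over all genes). Against the trend at an unadjusted p under 0.05 there were 53. Of the 111, 78 were highest in organoid 4, and 69 were lowest in organoid 1 and 30 in organoid 2. Over all 12965 genes the last 3 counts were 2197, 2702 and 1542. Their median log2 difference from the median of the 6 organoids was -0.86, -0.77, 0.00, 0.52, 0.10 and 0.11 in organoids 1 to 6. The share of reads outside all features was 38.1, 41.6, 40.5, 36.0, 35.0 and 38.4%, and the share not aligned was 5.78, 5.30, 5.62, 7.77, 6.58 and 5.87%, so organoid 4 also had the most reads that did not align. The part of library preparation in the small RNA levels was not tested. The count of small RNAs past both tests was 35 without organoid 6, 5 without organoid 1 or organoid 2, and 4 without organoid 4.

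Among the 35 genes in no group, Xist, the RNA that coats the inactive X chromosome in female cells (chrX:103460366-103483254), had a single high organoid. It stood at 0.718, 0.981, 0.739, 58.4, 0.621 and 0.896 CPM (biological CV 2.26, and 0 without organoid 4). The raw counts were 12, 14, 11, 794, 9 and 13, and the largest of the 18 earlier organoids had 57. The Y-linked genes were looked up with it. Ddx3y lay between 2206 and 3681 raw counts over the 6 organoids, with its lowest value in organoid 4. On the CPM scale Uty was lowest in organoid 4 too, and Eif2s3y was lowest in organoid 5. Kdm5d was second highest in organoid 4, at 9.85 CPM. All 4 Y-linked genes of the list were above the minimum and none passed the trend test (0 at an unadjusted p under 0.05, and 0 by the dispersion outliers of DESeq2). Over 454 X-linked genes, organoid 4 differed from the median of the 6 organoids by a median of -0.01 on the log2 scale, and the other 5 by between -0.07 and 0.07. Tsix, the antisense partner of Xist, had 4 to 11 counts in each organoid, and the 2 transcripts overlap, so that their reads can be told apart by strand only.

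Pigment genes were also outside the groups. Pmel, the scaffold protein of melanosomes, read 23.3, 7.22, 9.61, 0.368, 0.828 and 6.89 CPM (biological CV 1.04). Tyr, tyrosinase, was at 13.9, 14.4, 6.45, 1.91, 0.966 and 5.58 CPM, and Tyrp1 at 29.3, 23.8, 17.7, 1.25, 4.48 and 17.4 CPM. Organoids 4 and 5 were the low ones for each of these, and for Dct they had 10.9 and 10.6 CPM against 38.3 to 56.1 in the other 4. Mitf, the transcription factor above them, lay between 13.9 and 30.5 CPM and did not pass the trend test. Of the 6 pigment genes with the minimum count, 4 passed, against 3.69% of all genes.

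Myh11, the smooth muscle myosin, was at 24.8, 5.32, 5.85, 0.956, 1.45 and 3.03 CPM (biological CV 1.298, and 0.652 without organoid 1). Igf2, the paternally expressed growth factor, stood at 75.8, 51.1, 200.4, 167, 67.7 and 53.8 CPM (0.626), with organoids 3 and 4 above the other 4. Nnat, neuronatin, another imprinted gene, read 550.3, 243, 207, 408, 616 and 256 CPM. The other imprinted genes of the list, 16 of 18 with the minimum count, did not pass the trend test with all 6 organoids. Over all genes 3.69% passed, and at an unadjusted p under 0.05 against the trend there were 4 of the 18. Without organoid 2, 3 or 5, 1 imprinted gene passed, without organoid 4 it was 2, and without organoid 1 or 6 it was 3.

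Lists of the retina's own cell types were also counted against the trend. The gene lists, those above included, were chosen with earlier results of these data known. A share of a list beside that of all genes is therefore a description and not a test. Sag, rod arrestin, had the widest spread of the rod genes at 3365, 3815, 8853, 4190, 4946 and 6292 CPM (biological CV 0.390, adjusted p = 0.154), with organoid 3 the highest, and Gnb1, a subunit of transducin, the smallest at 1161 to 1769 CPM (0.146). None of the 23 rod genes with the minimum count passed the trend test of edgeR, against 3.69% of all genes. At an unadjusted p under 0.05 there were 4, and 0 among the dispersion outliers of DESeq2. How many of all genes lay under this unadjusted cut was not counted with all 6 organoids. Without organoid 6 it was 1105 of 12895 genes, and the unadjusted counts of the other lists stand beside the same share. The median biological CV of the rod genes was 0.265 beside 0.165 over all genes. The summed rod level in organoids 1 to 6 was 18656, 25259, 38641, 27613, 29070 and 39058 CPM, lowest in organoid 1 and highest in organoid 6.

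None of 7 cone, 14 bipolar and 3 horizontal genes passed the edgeR tests either (median biological CV 0.429, 0.332 and 0.296). At an unadjusted p under 0.05 there were 5, 5 and 0 against the trend, DESeq2 marked 0, and without organoid 6, 1 bipolar gene passed. Gnat2, cone transducin, lay between 15.6 and 50.2 CPM with organoid 6 the highest, and Thrb, a thyroid hormone receptor of cones, between 95.1 and 149 CPM. Grik1, a glutamate receptor of OFF bipolar cells, ranged from 4.96 to 19.8 CPM, and Prkca, protein kinase C of rod bipolar cells, from 129 to 156 CPM. For horizontal cells, Calb1, calbindin, lay between 8.35 and 23.5 CPM and Prox1, a homeobox factor, between 56.8 and 79.7 CPM. Of these 6 genes Grik1 had the largest biological CV, 0.588, which fell to 0.310 without organoid 3.

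Of 13 amacrine genes 3 passed, against 3.69% of all genes, and these were Gad1, Gad2 and Calb2 (median biological CV of the list 0.388). Slc6a9, a glycine transporter, did not pass and was highest in the organoids where Gad1 and Gad2 were low, with 35.9 CPM in organoid 5, 35.6 in 6 and 23.5 to 27.7 in the others. Of 6 ganglion cell genes 3 passed, against the same 3.69%, and the median of the list was 0.448. Slc17a6 is described above, and the others were Nefl, the light neurofilament, at 174, 199, 85.9, 207, 262 and 52.4 CPM and the surface protein Thy1 at 24.4, 14.4, 15.3, 32.4, 32.9 and 1.86 CPM. Both are found in neurons of the brain as well, and both belonged to the Pou3f3 group. Without organoid 6, 1 of the 6 passed. Ebf1, which did not pass, lay between 2.24 and 5.31 CPM.

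For Müller glia, 2 of 17 genes passed, against 3.69% of all genes. They were Aqp4 and the potassium channel Kcnj10, at 105, 55.6, 34.7, 63.2, 150.1 and 25.7 CPM, and both are also astrocyte genes. The other members, some named after their values had been seen, did not share a single order. Apoe, Slc1a3, Glul, Vim, Sox9, Dbi and Ttyh1 were lowest in organoid 6 as well, and Clu in organoid 3. Gpr37, Car14 and Hes1 were highest in organoid 6. Car2, Abca8a and Rlbp1 were highest in organoid 3, with Rlbp1 at 105, 114, 214, 153, 151 and 155 CPM. Dkk3, a secreted protein of Müller glia, lay between 299 and 343 CPM, also highest in organoid 3. Of 10 genes linked to gliosis and neuroprotection, 3 passed: Gfap, the receptor Egfr at 9.71 to 58.1 CPM, and Serpina3n, a protease inhibitor of reactive astrocytes, at 43.6, 26.3, 12.2, 19.04, 58.6 and 16.9 CPM. Stat3, the factor that acts upstream of Gfap in reactive glia, lay between 109.5 and 144 CPM and was highest in organoid 6.

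Beside the pigment list described above, 4 lists for tissue other than neural retina had several genes past the trend. These lists too were chosen with earlier results of these data known, so their counts do not test for an excess over all genes. Of 13 telencephalic genes 8 passed (4 without organoid 6), of 7 choroid plexus genes 5 (3 without organoid 6, 2 without organoid 2), of 6 oligodendrocyte genes 3 (2 without organoid 6, 2 without organoid 1) and of 10 mesenchyme genes 4 (2 without organoid 3 and 2 without organoid 5). Over all 12965 genes 478 passed, or 3.69%, with 270 without organoid 6 and 400 to 416 without any other organoid. The median biological CV of the 4 lists was 0.607, 0.781, 0.573 and 0.626. The dispersion outliers of DESeq2 were fewer, with 5 telencephalic genes and 2 each of the choroid plexus, oligodendrocyte and mesenchyme lists, beside 2 each of the amacrine, Müller glia and pigment lists and 1 each of the ganglion cell, gliosis, metallothionein, neuropeptide, vascular and imprinted lists. Over all genes these outliers made up 1.33%. Slc17a7, a glutamate transporter that photoreceptors share with cortical neurons, was the steadiest telencephalic gene at 143 to 254 CPM, lowest in organoid 1, and it did not pass. The choroid plexus list summed to 299, 3098, 131, 35.6, 521 and 3150.1 CPM in organoids 1 to 6, of which Ttr made up most, and its member F5, coagulation factor V, at 1.41 to 7.08 CPM, did not pass.

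Col3a1, a fibrillar collagen of mesenchyme, stood at 39.5, 23.3, 10.95, 25.9, 113 and 3.44 CPM (biological CV 1.10), with organoid 5 alone at the top, whereas Col5a1 lay between 4.82 and 10 CPM. Rgs5, a pericyte gene, read 27.8, 7.99, 6.45, 6.91, 34.0 and 1.93 CPM, and Kdr, a vascular growth factor receptor that retinal progenitors also carry, 130.3 to 255 CPM. Of 3 vascular genes only Rgs5 passed, against 3.69% of all genes. Mbp, myelin basic protein, lay between 11.7 and 26.8 CPM and did not pass.

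**Figure D4:**
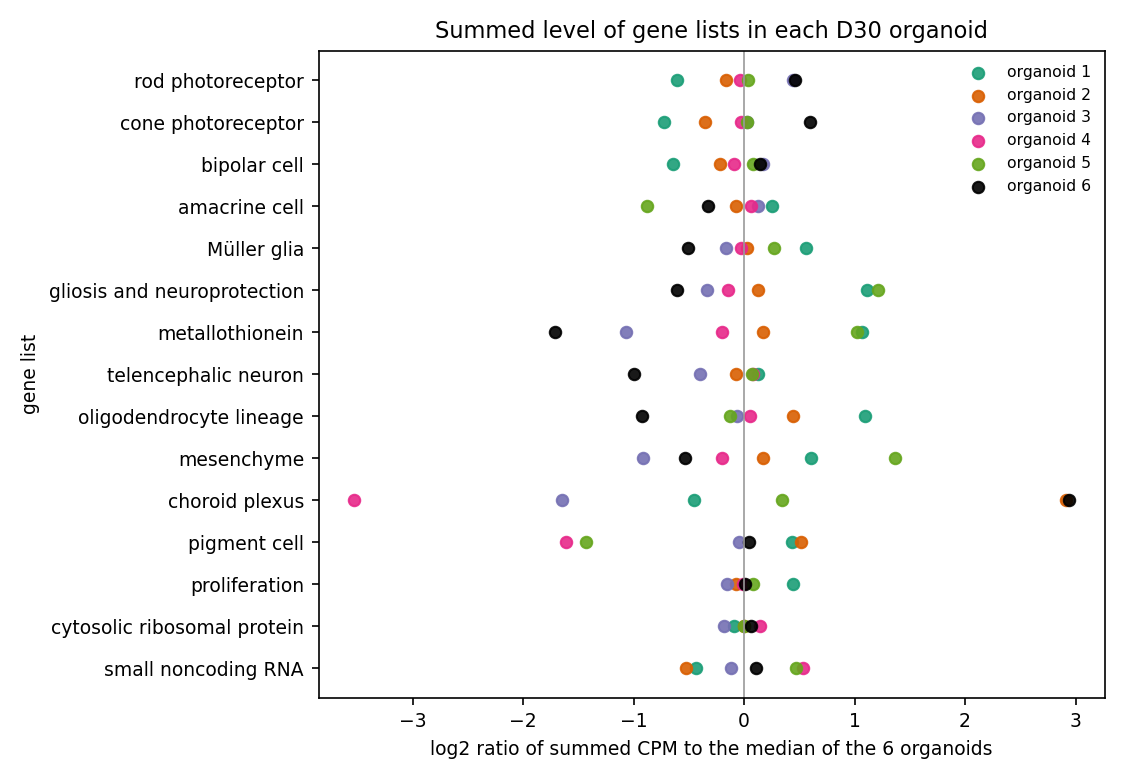
Summed CPM of 15 gene lists in each D30 organoid, as the log2 ratio to the median of the 6 organoids (horizontal axis), 1 coloured point per organoid. The choroid plexus list spans 35.6 to 3150.1 CPM, the rod list 18656 to 39058 CPM and the ribosomal list 11563 to 14471 CPM.

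Most housekeeping and stress lists had no gene past the trend, although their median biological CV lay on both sides of the 0.165 of all genes. None of 77 cytosolic ribosomal protein genes passed the trend test (median biological CV 0.123), nor did any of 16 proliferation genes (0.1998), 29 replication-dependent histone genes (0.202), 8 heat shock genes (0.136), 10 p53 target genes (0.186), 5 interferon and MHC class I genes (0.237) or 15 hypoxia and glycolysis genes (0.286). At an unadjusted p under 0.05 the counts were 1, 0, 0, 0, 0, 1 and 7 in the same order, and DESeq2 marked none as a dispersion outlier. In the last list 3 passed when organoid 1 was left out. Within them, Bub1, a mitotic checkpoint kinase, lay between 3.59 and 11.5 CPM and Pcna, the replication clamp, between 50.1 and 63.0 CPM. Hspa1a, an inducible heat shock protein, ranged from 6.40 to 15.4 CPM and Hsph1 from 187 to 204 CPM, Eda2r from 10.3 to 28.6 CPM and Ccng1, cyclin G1, from 187 to 256 CPM. H2-K1, an MHC class I chain, lay between 11.6 and 36.5 CPM and its partner B2m between 24.7 and 37.2 CPM, and the vasodilator Adm between 9.09 and 35.3 CPM and lactate dehydrogenase Ldha between 653 and 956 CPM.

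Single members of 3 further lists passed, against 3.69% of all genes. Of 10 immediate early genes it was Arc, a gene of neuronal activity, at 0.605 to 7.17 CPM, lowest in organoid 3, while Egr1 lay between 8.90 and 13.1 CPM. Of 15 genes of unfolded protein and amino acid stress it was Slc7a11, the cystine transporter, at 62.5 CPM in organoid 1 and 13.4 to 31.7 in the others, while asparagine synthetase Asns lay between 78.8 and 94.3 CPM. Of 15 cholesterol synthesis genes it was Hmgcs1, the synthase at the start of the pathway, at 776, 647, 407, 757, 618 and 192 CPM, while Dhcr7, at its end, lay between 14.9 and 20.96 CPM. Arc did not pass without organoid 1, 3, 5 or 6, Slc7a11 did not without organoid 1, and Hmgcs1 did not without organoid 6.

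The remaining lists had few genes above the minimum count, and over all genes 3.69% passed. Of 4 neuropeptide genes Cck passed, at 12.3, 8.76, 0.336, 11.3, 9.31 and 1.03 CPM, and Cartpt, highest in organoid 3 at 24.9 CPM, and Penk, at 1.65 to 9.26 CPM, did not. Without organoid 3 no neuropeptide gene passed, and without organoid 6 2 did. None of 7 multiciliated cell genes passed with all 6 organoids (2 at an unadjusted p under 0.05), and 1 did without organoid 6, with Dnah5, an axonemal dynein, at 1.45 to 12.6 CPM and Dynlrb2 at 3.68 to 6.11 CPM. The 3 muscle genes did not pass either, with Tnnt2 at 4.31 to 20.8 CPM and Ttn, titin, at 9.60 to 13.7 CPM. The 2 pluripotency genes Lin28a, 5.46 to 19.4 CPM and highest in organoid 3, and Esrrb, 7.42 to 15.4 CPM, did not pass, nor did the surface keratin Krt18, at 13.4 to 41.8 CPM, or the lens crystallin Cryab, at 5.93 to 8.83 CPM. Of 5 dorsal genes only Aldh1a1 passed, and Efnb1, an ephrin, lay between 9.21 and 15.7 CPM. Of the ventral list, the ephrin receptors Ephb2, at 38.8 to 64.0 CPM, and Ephb3, at 5.24 to 8.76 CPM, were measured and did not pass. At an unadjusted p under 0.05 these muscle, pluripotency, surface, lens and ventral lists had 1, 1, 1, 0 and 0 genes, and DESeq2 marked none of them. Igf2r, the steadiest imprinted gene, lay between 50.1 and 69.6 CPM, and of the Y-linked genes Kdm5d, at 3.76 to 10.7 CPM, varied most and Eif2s3y, at 148 to 212 CPM, least.

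The organoids of D25, D22 and D20 had no part in the choice of the 478 genes. At D25, 387 of them had a mean of 50 or more raw counts, and 231 of the 387 (59.7%) passed both tests there, against 3.59% of all genes tested at D25. At D20 it was 87 of 295 (29.5%) against 1.57%, and at D22 37 of 259 (14.3%) against 1.76%. Seen from the other side, the shared genes made up 50.9% of the 454 genes called at D25, 45.3% of the 192 called at D20 and 17.4% of the 213 called at D22. The median biological CV of the D30 genes was 0.542 at D25, 0.263 at D22 and 0.333 at D20, beside 0.127, 0.149 and 0.138 over all genes. For the 270 genes past both tests without organoid 6, the shares were 104 of 219 (47.5%) at D25, 39 of 147 (26.5%) at D22 and 56 of 159 (35.2%) at D20.

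Most of the genes shared with D25 were of the Pou3f3 group, of which 198 of 316 tested passed there, 17 of 209 at D22 and 72 of 244 at D20. Neurod6 stood at 228, 1.15, 53.8, 88.2, 23.7 and 135 CPM in D25 organoids 1 to 6, and Pou3f3 at 140.0, 2.80, 54.1, 40.0, 17.1 and 79.5 CPM. The D25 organoids are other organoids than those of D30 with the same numbers, and among them number 2 was lowest and number 1 highest for both genes. Mef2c read 727, 8.14, 98.9, 18.1, 26.7 and 428 CPM in the same organoids, again lowest in number 2 and highest in number 1. Gfap, at 28.5 to 161 CPM at D25, had another order there, with its lowest value in number 5.

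How far the groups varied together in the earlier organoids was read from the mean correlation between pairs of their genes. It is given without a test since each value rests on 6 organoids. For the Pou3f3 group it was r = 0.832 at D30, where the genes were grouped by it, and 0.540 at D25, 0.113 at D22 and 0.343 at D20. For the Ttr group the values were 0.854 at D30 and 0.647, 0.372 and 0.117 at D25, D22 and D20. The small RNA group had 0.873 and then 0.750, 0.445 and 0.506, the Gad2 group 0.808 and then 0.277, 0.406 and 0.360, and the Col4a1 group 0.909 and then 0.141, 0.354 and 0.197. Over all pairs of the 478 genes the mean was 0.472 at D30, 0.316 at D25, 0.108 at D22 and 0.247 at D20, so that the Gad2 and Col4a1 groups lay below it at D25, the Col4a1 group also at D20, and the Pou3f3 group was close to it at D22. The Ttr group was below it at D20. Genes under the minimum count of a timepoint entered these means too. At D20 only 4 of the 19 genes of the Ttr group and 5 of the 16 of the Col4a1 group reached it. Their median levels were 0.974 and 1.69 CPM at D20, beside 10.1 and 10.6 CPM at D30. Counting error can lower a correlation at such levels, and its part in the low values was not tested. Whether these groups came apart is not read from them. Over all pairs of genes with the minimum count the mean was 0.0013 at D30 and 0.0008 at D25. Ttr lay between 38.8 and 667 CPM over the D25 organoids, and 7 of 10 tested genes of its group passed there, as did 5 of 18 of the Gad2 group and 5 of 13 of the small RNAs.

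Whether D30 organoids were less alike than organoids of the earlier timepoints was compared over 12698 genes with the mean absolute log2 deviation of an organoid from the median of its timepoint. At D30 it was 0.234 ± 0.0559 (SD, n = 6), with organoid 6 the highest at 0.337 and organoid 2 the lowest at 0.177. At D25 it was 0.194 ± 0.0543, at D22 0.224 ± 0.0296 and at D20 0.211 ± 0.0358 (SD, n = 6 each). The differences of 0.04, 0.01 and 0.02 were not larger than the spread between organoids (exact permutation test, two-sided, p = 0.238, 0.736 and 0.442, adjusted over the 3 comparisons 0.662, 0.736 and 0.662). Without organoid 6 the D30 value lay below those of D22 and D20.

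**Figure D5:**
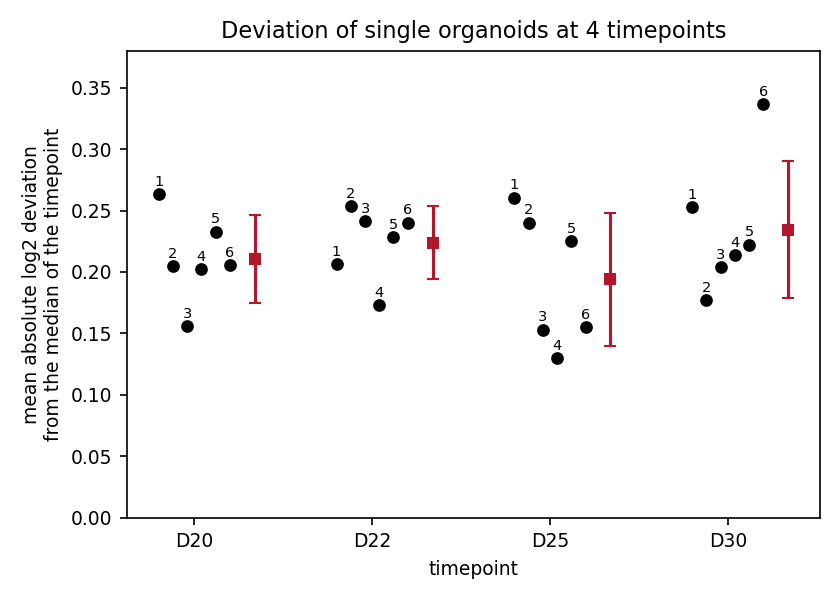
Mean absolute log2 deviation of each organoid from the median of its timepoint (vertical axis) for 4 timepoints of 6 organoids each, numbered, with the mean and SD of each timepoint as a red square and bar. D30 organoid 6 is the highest point at 0.337, and the other D30 organoids lie between 0.177 and 0.253.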

How the data were processed

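RNA of 24 single organoids was sequenced after removal of ribosomal RNA, and 6 of them, those of D30, are described. The authors demultiplexed the reads with bcl2fastq (2.20), trimmed them with cutadapt (1.5), checked them with FastQC (0.11.2), aligned them with HISAT2 to GRCm38/mm10, sorted them with SAMtools (1.1), assembled transcripts with StringTie (1.3.3) and counted reads per feature with HTSeq (0.6.1). The deposited values are these raw counts, whole numbers without normalization. Whether the counting used the strand is not given in the sources used here, so reads of overlapping genes may be shared. The 13 mitochondrially encoded mRNA genes are listed at 0 in every file. Summary lines were left out, as were assembled loci, except from 1 alternative.

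Symbols, biotypes and coordinates came from GENCODE vM21 (GRCm38), which named 12927 of the 12965 genes tested. Counts of annotated genes were normalized with TMM in edgeR (4.0.16, R 4.3.3), and genes with a mean of 50 or more raw counts at D30 were tested for goodness of fit of a model with 1 common level, first with Poisson noise and then with the trended dispersion, with Benjamini-Hochberg adjustment at 0.01. Adjusted p values in the text are those of the second test. The trend was estimated from the same organoids and lay between 0.197 and 0.376, with a common value of 0.264. Genes past both tests were grouped by average linkage on 1 minus Pearson's r of log2 CPM (prior count 2), cut at 0.4, with at least 10 genes per group, and once more cut at 0.25. Deviations between timepoints were compared by exact permutation of 12 organoids (924 splits). All organoids come from 1 experiment, so the tests measure the spread between these organoids. Intervals and the limit of 3 counts cover counting error only.

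The genes named were the 20 with the largest biological CV past both tests, the 15 largest with a mean of 1000 or more raw counts, the 8 closest to each group's mean pattern, the 8 smallest with that mean, and in each of 36 gene lists the largest and the smallest. Predicted genes were counted and not named, and some other genes are not reported here. Other list members and genes were named after their values had been seen. The members and the lists were chosen with earlier results of these data known. Alternatives were DESeq2 (1.42.0) size factors, dispersion outliers and variance stabilization, library totals, other minimum counts, other correlations and cuts, and the omission of each organoid. The scripts were tested on simulated data. Figures used matplotlib (3.10.9) in Python (3.11.15).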

Additional observations from a re-analysis of the deposited data

Results flagged for a closer look

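Dixon's ratio is the gap between 1 organoid and the nearest of the other 5, over the whole range of the 6. A value is listed here when that ratio exceeded Dixon's critical value for 6 samples. For values that were not selected, chance gives this in about 1 of 20 groups. That rate does not hold here, because many of the genes were named for their large spread or after their values had been seen. Of 203 gene levels, list sums and organoid deviations looked at, 42 were flagged. Most such values were those of organoid 6. In the basement membrane genes it had 426 CPM for Col4a1, 294 for Col4a2, 319 for Lama1, 332 for Lamb1, 228 for Lamc1, 77.6 for Nid1 and 21.8 for Tinagl1. In the other genes of the Col4a1 group it had 105 CPM for Gkn2, 25.2 for Pga5, 71.9 for Srgn, 32.4 for Tspan8, 26.7 for Ugt2b34, 21.01 for Trap1a, 40.2 for Tfpi, 31.6 for Fst and 16.8 for Ctsh.

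Among the genes below the minimum count, organoid 6 stood apart with 14.3 CPM for Afp, 1.86 for Foxa2, 3.65 for Sox17, 3.86 for Gata4, 2.55 for Gata6, 12.3 for Tff1, 15.5 for Gkn1, 9.92 for Cubn, 6.96 for Rhox5 and 9.23 for Krt8, and with a sum of 27.5 CPM over the endoderm list.

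Organoid 3 stood apart with 59.6 CPM for Vax2os, 9.34 for Vax2, 10.2 for Aldh1a3, 151 for En2, 24.9 for Cartpt and 19.4 for Lin28a, and with 154 CPM summed over the midbrain and hindbrain list, of which En2 made up nearly all. Organoid 1 stood apart with 79.4 CPM for Bcas1, 24.8 for Myh11 and 62.5 for Slc7a11, and with sums of 701 CPM over the proliferation list and 23.4 CPM over the lens list. Organoid 5 had 113 CPM for Col3a1 and 10.0007 for Col5a1, and organoid 4 had 58.4 CPM for Xist.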

How the results depend on the processing

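The counts of genes past counting noise, past the trend and in groups, and the median biological CV, were recomputed under each alternative. Past the trend there were 270 to 416 genes when 1 organoid was left out (270 without organoid 6), and DESeq2 marked 172 as dispersion outliers, all 172 among the 478. The genes in groups numbered 247 to 411 with 1 organoid left out, and the 247 without organoid 6 formed 6 groups and shared 175 genes with the 443. The median biological CV was 0.143 with a minimum mean of 200 raw counts, 0.253 with a minimum of 1, and 0.155 to 0.168 with 1 organoid left out. Past counting noise, 11010 to 11377 genes remained in number with 1 organoid left out. Under the other scalings, limits, correlations and cuts each of the 3 counts stayed within 1.5 times its value.

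The difference in deviation from D22 turned to -0.0061 without D30 organoid 1 and to -0.0229 without D30 organoid 6, and that from D20 to -0.00997 without D30 organoid 6. With 1 organoid left out, the difference ranged from 0.0069 to 0.0642 against D25, from -0.0229 to 0.0294 against D22 and from -0.00997 to 0.046 against D20. With the replicate block, which sets equal numbers against each other, the differences stayed at 0.0404, 0.0107 and 0.0236 (exact sign-flip permutation test, p = 0.375, 0.656 and 0.4375). The numbers do not pair the organoids, since deviations of equal numbers correlated between -0.31 and 0.43. Of 127 genes under the naming rule, the biological CV moved by over 1.5 times in 21 without organoid 6, in 11 without organoid 3, in 9 without organoid 1, in 4 each without organoid 4 or 5, and in 3 without organoid 2. The depth limits genes near 3 counts, and 1 experiment with 6 organoids limits the rest.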

Other observations

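Grouped anew without organoid 6, the 270 genes past both tests held 6 groups of 10 or more genes, chosen by their pattern and so given without a test. The largest, of 119 genes, 98 of them from the Pou3f3 group, was lowest in organoid 3 and highest in organoid 1 on the mean standardized scale (-1.39 and 0.86), and Hspb8, a small heat shock protein, Fgfr3, a growth factor receptor of glia, Nrp1, neuropilin, and Mt1 were closest to it. A group of 36 genes, 12 from the Pou3f3 and 16 from the Gad2 group, was low in organoid 5 alone (-1.60). Its closest genes were Sp9, Dlx1, Adarb2 and Sp8, of which Sp9, Dlx1 and Sp8 are transcription factors of forebrain interneurons. A group of 21 genes, 19 from the Pou3f3 group, was high in organoid 1 (1.39) and held Sox2, a factor of neural progenitors, Sox11, Nfib, Gjc3, Bcas1 and Slc7a11.

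A further 39 genes, 12 from the small RNA group, were low in organoids 1 and 2 (-1.14 and -0.80) and highest in organoid 4 (1.03). The 22 genes around Aqp1, Ogn and Ttr, 13 of them from the Ttr group, were highest in organoid 2 (1.26) and lowest in organoid 4 (-1.12). The last group, of 10 genes with Crip1, Cartpt, En2 and Vax2os, was high in organoid 3 (1.43).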
